A study of Mus musculus with 4 samples.

Results

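This account covers 10 mouse genes of the endoglin-ALK1 branch of BMP signalling and its SMAD targets, Acvrl1, Eng, Bmpr2, Bmpr1a, Smad1, Smad9, Smad6, Smad7, Id1 and Id3, out of 21728 protein-coding genes in the GENCODE annotation of mm10. They were chosen by name, as receptors, SMADs and early targets of 1 pathway, and not by a rule on measured values. Earlier results of these data were known when they were chosen. ATAC-Seq, which reads open chromatin from where the transposase Tn5 can insert, had been run on nuclei from whole hearts of male C57BL/6 mice aged between 8 and 12 weeks. All animals were NuTRAP/Cdh5-Cre, a cross in which Cre expressed from the endothelial Cdh5 promoter switches on a GFP reporter, and both nuclei populations came from this genotype. The 2 samples of GFP+ (endothelial) nuclei and the 2 of GFP- (non-endothelial) nuclei were separated by flow cytometry, with between 100 and 50000 nuclei and 2.5 µL of Tn5 per 50000 nuclei according to the labels. Each population had 1 peak list, called by the authors from both of its replicates together, so no difference described here has a replicate check and none was tested.

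The ligands BMP9 and BMP10 circulate in blood and bind endoglin (Eng) and the type I receptor ALK1 (Acvrl1) on endothelial cells (ECs), together with the type II receptor BMPR2. The activated receptors phosphorylate SMAD1, SMAD5 and SMAD9, which enter the nucleus with SMAD4 and switch on genes such as Id1, Id3 and the inhibitory SMADs Smad6 and Smad7, and the inhibitory SMADs in turn damp the receptors. Inherited loss of ENG or ALK1 causes hereditary haemorrhagic telangiectasia, and loss of BMPR2 causes heritable pulmonary arterial hypertension.

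A peak's size was taken as its area, which the caller Genrich derives from the −log10 p over the peak. This area was converted to a percentile rank within its own list (100 for the largest peak, 0 for no peak). A position in a locus is the distance of the peak's summit from the 5′ end of the gene record, negative upstream. Peaks of both lists that overlapped by at least 1 bp were merged into regions, and a region was called higher or lower in GFP+ when its rank differed by more than 10 percentile points. The GFP- list held 78912 peaks (52.1 Mb) and the GFP+ list 65008 peaks (41.8 Mb), so a region found in the GFP- list only was the commoner kind throughout the genome. The labels were checked on marker genes of cardiac cell types. Of 10 endothelial markers, 8 had a peak at the start of the gene record in at least 1 list, 7 of them ranked higher in GFP+ and 1, Tek, lower. Of 6 fibroblast markers, 5 had a start peak in the GFP- list and 0 in the GFP+ list, although 2 had a GFP+ peak at another annotated start. Of 6 pericyte and smooth muscle markers, 5 had a start peak in GFP- and 3 in GFP+, and 4 were called lower in GFP+. Of 5 macrophage markers, only Cd68 had a start peak, which ranked 31.8 in GFP- and 16.8 in GFP+. The starts of all 6 cardiomyocyte markers carried peaks in both lists, with a median rank of 99.6 in GFP- and 94.6 in GFP+. Cardiomyocyte start peaks were therefore present in the GFP+ list beside every result given here, and their part in these results was not tested. In lists from pooled nuclei, a site open in fewer nuclei and a site less open in each nucleus cannot be told apart.

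The 200 bases around a summit are shown for 8 GFP+ peaks on which the results turn, read from the GRCm38 genome (mm10) on its plus strand. The first pair lies upstream of Eng and within Smad1 and holds the largest peaks of these genes that had no counterpart in GFP- nuclei. The next pair, in the first introns of Eng and Smad1, holds CAGGAAGT, the word bound by ETS factors such as ERG. The last group, at Id1, Id3 and Smad6, holds GGCGCC, the GC-rich core bound by SMAD1 and SMAD5. Capitals mark these words and the shorter ETS word AGGAAG, which the longer one contains, on either strand. In 2 windows, Id1 at 3252 and Id3 at −3017, the capitals run from GGCGCC through 5 spacer bases to GTCT, an arrangement known from BMP-responsive elements. Smad1 and Smad6 are transcribed from the minus strand.
Eng at −3558, chr2:32642937-32643136: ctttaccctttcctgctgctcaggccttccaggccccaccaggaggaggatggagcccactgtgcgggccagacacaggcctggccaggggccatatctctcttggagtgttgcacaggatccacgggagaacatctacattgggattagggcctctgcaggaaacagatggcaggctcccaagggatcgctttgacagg
Smad1 at 17616, chr8:79381802-79382001: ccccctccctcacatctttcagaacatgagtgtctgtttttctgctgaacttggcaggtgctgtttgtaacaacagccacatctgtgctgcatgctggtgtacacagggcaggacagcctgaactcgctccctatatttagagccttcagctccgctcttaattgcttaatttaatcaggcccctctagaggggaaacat
Eng at 9425, chr2:32655920-32656119: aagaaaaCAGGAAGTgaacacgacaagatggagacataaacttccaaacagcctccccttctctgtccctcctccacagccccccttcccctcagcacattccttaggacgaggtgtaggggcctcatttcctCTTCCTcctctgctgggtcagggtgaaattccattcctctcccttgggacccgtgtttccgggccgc
Smad1 at 23973, chr8:79375445-79375644: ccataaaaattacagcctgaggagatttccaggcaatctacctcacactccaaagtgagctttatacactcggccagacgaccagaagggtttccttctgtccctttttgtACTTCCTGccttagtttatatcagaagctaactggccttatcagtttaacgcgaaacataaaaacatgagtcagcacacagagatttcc
Id1 at −1045, chr2:152735106-152735305: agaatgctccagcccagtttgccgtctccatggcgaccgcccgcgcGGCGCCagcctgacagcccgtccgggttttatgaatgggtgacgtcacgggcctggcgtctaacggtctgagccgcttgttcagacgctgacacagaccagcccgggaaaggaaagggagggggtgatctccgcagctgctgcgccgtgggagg
Id1 at 3252, chr2:152739403-152739602: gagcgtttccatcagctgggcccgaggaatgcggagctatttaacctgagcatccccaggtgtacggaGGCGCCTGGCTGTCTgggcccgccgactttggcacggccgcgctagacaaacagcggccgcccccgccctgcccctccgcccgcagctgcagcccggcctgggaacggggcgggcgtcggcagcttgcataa
Id3 at −3017, chr4:136140380-136140579: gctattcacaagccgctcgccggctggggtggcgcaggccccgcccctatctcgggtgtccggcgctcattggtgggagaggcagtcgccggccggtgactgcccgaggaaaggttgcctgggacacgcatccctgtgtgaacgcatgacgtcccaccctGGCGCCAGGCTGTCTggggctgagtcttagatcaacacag
Smad6 at −1055, chr9:64023014-64023213: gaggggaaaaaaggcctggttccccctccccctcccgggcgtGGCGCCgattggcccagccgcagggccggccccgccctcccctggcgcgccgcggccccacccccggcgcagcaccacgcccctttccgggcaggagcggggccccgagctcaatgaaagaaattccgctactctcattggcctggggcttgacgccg

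All 10 genes had a peak within 250 bp of the start of the gene record in both lists. Among all protein-coding genes, 56.9% had such a peak in the GFP- list and 54.8% in the GFP+ list. For 9 of the 10 genes the rank of this start peak lay within 10 points between the populations, and 7 of the 10 ranked above 90 in both. The median difference, GFP+ minus GFP-, was −0.43 points (95% order-statistic interval over genes −5.05 to 3.38), with 5 genes above 0 and 5 below, against −0.83 over the 12577 genes with a start peak in either list. None of the 10 was called higher, where 3.57% of the 12577 genes were, and 1 was called lower, where 12.5% were. The 7 genes above 90 could not be called higher, since a rise of more than 10 points would pass the top of the scale. With size taken as area per bp instead, 3 of the 10 were called higher (Eng by 22.8 points, Id1 by 17.5 and Smad7 by 11.2), against 8.44% of genes, and 2 lower (Smad9 by −26.6 and Bmpr2 by −10.3), against 21.3%. The plot of start-peak ranks sets the populations side by side.

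**Figure D1:**
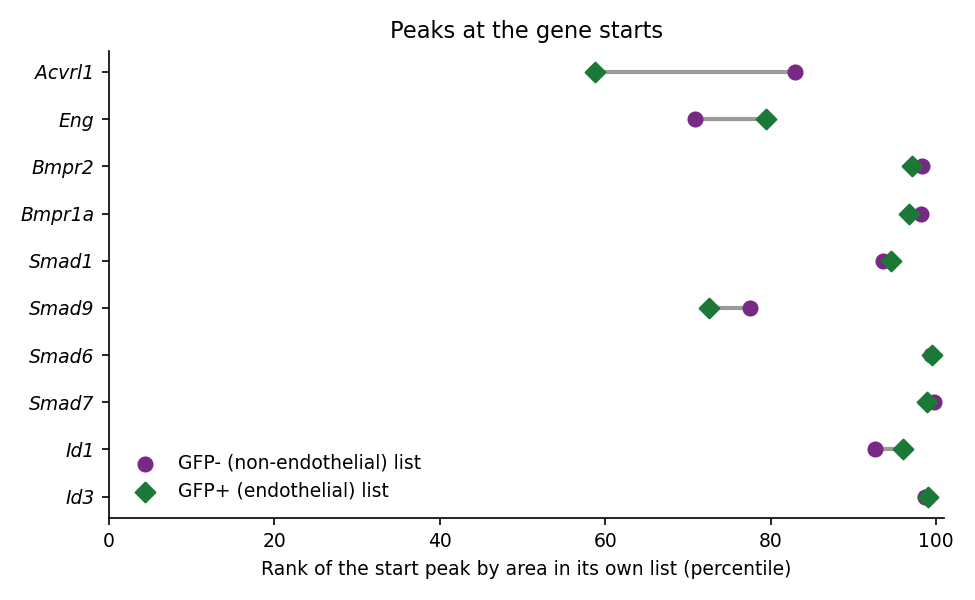
Percentile rank by area of the peak at the start of each gene (x axis, 0 to 100) in the GFP- list (circles) and the GFP+ list (diamonds), 1 list per population, so without error bars. Acvrl1 is the only gene whose symbols are more than 10 points apart, at 82.9 in GFP- and 58.8 in GFP+.

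Among the receptors, Eng ranked 70.9 at its start in GFP- (1341 bp) and 79.4 in GFP+ (1345 bp), with the summit at the same base, −10, in both lists. Acvrl1, the type I receptor that pairs with endoglin, went the other way. Its start peak ranked 82.9 in GFP- and 58.8 in GFP+, a difference of −24.1 points, and was 1720 bp long in GFP- and 683 bp in GFP+. By area per bp the Acvrl1 difference was −7.74 points and no longer past 10. Bmpr2 ranked 98.3 and 97.1, and Bmpr1a, which encodes the widely expressed type I receptor ALK3, ranked 98.2 and 96.8. These starts stood at positions 1361 and 1911 (Bmpr2) and 1428 and 2094 (Bmpr1a) of the lists ordered by area. Both had larger start peaks than Eng and Acvrl1 in either population.

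Smad1, a receptor-activated SMAD, ranked 93.5 in GFP- and 94.5 in GFP+ at its start, and Smad9, which encodes the related protein also called SMAD8, ranked 77.6 and 72.5. The largest start peak of the 10 genes was that of Smad7 in GFP- and that of Smad6 in GFP+. Smad6, which acts mainly on BMP receptors, ranked 99.4 and 99.5, at positions 460 and 340 of the lists. Smad7, which blocks both TGF-β and BMP receptors, ranked 99.8 and 98.9, and its single GFP- peak of 4793 bp was divided into 3 peaks in GFP+, of 1776, 1422 and 1188 bp. Id1 and Id3 encode helix-loop-helix proteins that bind E proteins and keep them off DNA. Id1 ranked 92.6 in GFP- and 96.0 in GFP+, and Id3 ranked 98.7 and 99.0. The Id1 summit lay at −1045 in both lists rather than at the start itself, and that of Smad6 at −1055 in both.

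Away from the starts the loci differed more. The gene bodies with 50 kb to each side held 180 GFP- peaks and 175 GFP+ peaks, which merged into 205 regions. Of these, 131 were shared, 34 were found in GFP+ only and 40 in GFP- only. The GFP+ only regions made up 16.6% (95% Wilson interval 12.1 to 22.3) where 9.80% of the 75375 regions at protein-coding genes were GFP+ only. The GFP- only regions made up 19.5% (14.7 to 25.5) against 25.8%. These intervals cover counting error only, and regions of a locus are not independent. In rank, 57 regions were called higher in GFP+, or 27.8%, against 13.8% at protein-coding genes, and 56 were called lower, or 27.3%, against 35.2%. The median rank difference was −0.26 points (−2.29 to 0.991), against −3.52 over the 75375 regions. With both lists cut to the same number of peaks, 43 of 188 regions were GFP+ only (22.9%, against 17.0% at protein-coding genes) and 22 were GFP- only (11.7%, against 17.7%).

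**Figure D2:**
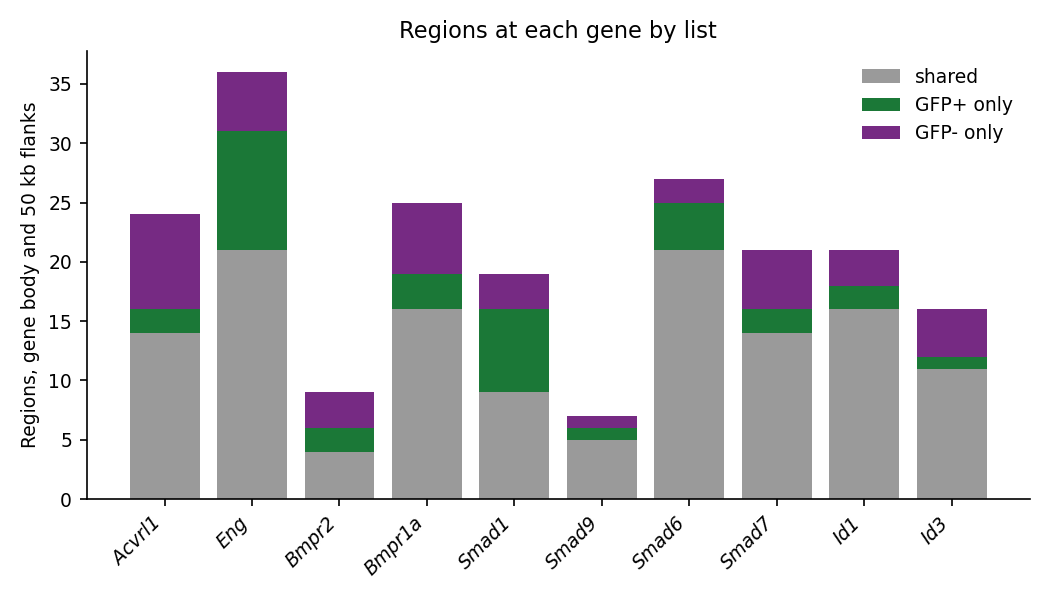
Number of merged regions in the gene body and 50 kb flanks of each gene, divided into those with peaks in both lists (grey), in the GFP+ list only (green) and in the GFP- list only (purple). Eng has the most GFP+ only regions with 10 of 36 and Smad1 follows with 7 of 19, while Acvrl1 has 8 GFP- only regions of 24.

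The GFP+ only regions were unevenly spread. Eng and Smad1 held 17 of the 34. The other 8 genes held 17 in 150 regions (11.3%), near the 9.80% of regions at all protein-coding genes. Of the same 150 regions, 32 were GFP- only (21.3%, against 25.8%). The higher GFP+ only share of the 10 genes thus rested mostly on Eng and Smad1. Eng had 10 and Smad1 had 7, numbers that 0.212% and 0.764% of protein-coding genes reached in windows built the same way, without regard to window length. The windows also contain starts of other genes, and 115 of the 205 regions had one of the 10 genes as the nearest protein-coding start. Among these 115, 23 were GFP+ only and 19 GFP- only. The unshared peaks were mostly small: the GFP+ only regions had a median rank of 17.9 (17.0 at all protein-coding genes) and the GFP- only regions one of 20.4 (24.5 at all protein-coding genes). By place, 12 of the GFP+ only regions lay in introns, 9 upstream, 12 downstream and 1 at an annotated start.

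**Figure D3:**
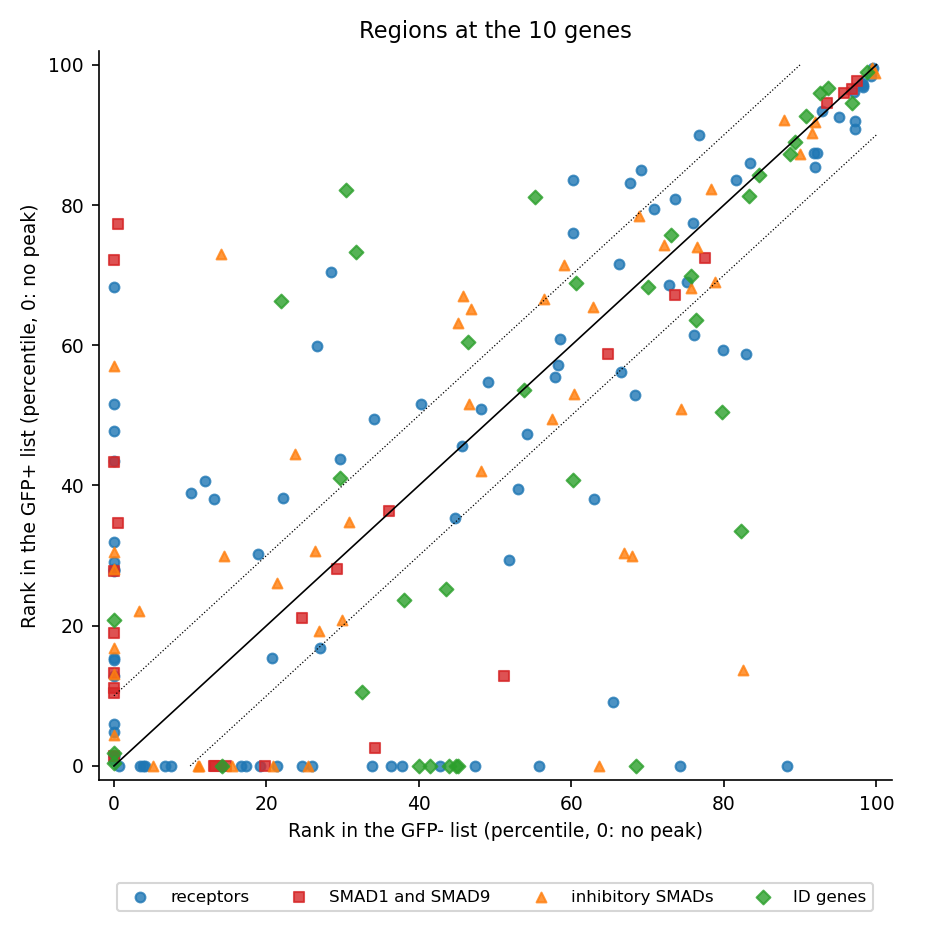
Percentile rank of each of the 205 regions in the GFP- list (x axis) and the GFP+ list (y axis), 0 where a list has no peak, with symbols by role of the gene. The solid line marks equal rank and the dotted lines a difference of 10 points, beyond which 57 regions lie on the GFP+ side and 56 on the GFP- side.

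At Eng, 15 of 36 regions were called higher in GFP+ (41.7%, against 13.8% at protein-coding genes) and 5 lower (13.9%, against 35.2%). The median difference was 5.79 points (−0.102 to 15.3). The 10 kb upstream of the start held 5 GFP+ only regions, which together covered 3079 bp of an 8950 bp stretch. Their ranks in GFP+ were 12.8 at −9743, 15.1 at −5872, 68.3 at −3558, 27.8 at −2228 and 15.3 at −1312. The highest of them, chr2:32642526-32643487, is the one whose centre is printed first among the sequences. Between them, a shared region at −8450 ranked 67.6 in GFP- and 83.1 in GFP+. Further upstream, a shared region at −12750, nearer to the start of Ak1, ranked 28.4 and 70.5. In the first intron, the shared region at 9425 with the ETS word ranked 76.8 in GFP- and 89.9 in GFP+. The second intron held a shared region at 15269 that ranked 69.2 and 85.0 and a GFP+ only region at 21373 that ranked 27.9. Of the 13 regions with Eng as the nearest coding start, 8 were GFP+ only and 0 were GFP- only. Over all regions at protein-coding genes, whatever their nearest start, the shares were 9.80% and 25.8%. In the opposite direction, a region at 33706 in a coding exon near the 3′ end ranked 65.5 in GFP- and 9.1 in GFP+. The 5 GFP- only regions all had another gene as the nearest coding start, and ranked up to 36.4.

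At Acvrl1, 3 of 24 regions were called higher (12.5%, against 13.8% at protein-coding genes) and 10 lower (41.7%, against 35.2%), with a median difference of −6.52 points (−21.4 to 0.438). The largest region absent from GFP+ at any of the 10 genes lay just upstream of it, at −1464 (chr15:101126758-101127841, 1084 bp), and ranked 88.3 in GFP-. Together with the longer GFP- start peak, this left 108 bp between GFP- peaks at the Acvrl1 promoter. Within the third intron the direction turned. A GFP+ only region at 4339 ranked 28.2, and a shared region at 6056, where a shorter Acvrl1 transcript is annotated to begin, ranked 26.6 in GFP- and 59.8 in GFP+. At the 3′ end, a broad GFP- peak of 3718 bp that ranked 97.2 was covered by separate GFP+ peaks that ranked 87.6 and 90.8. Of the 8 GFP- only regions, 1 had Acvrl1 as its nearest coding start, and the others lay nearer to Fignl2, Ankrd33 and Acvr1b.

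Bmpr2 and Bmpr1a had no GFP+ only region with the receptor itself as the nearest start. Bmpr2 had 9 regions in a window of 215615 bp. Its introns held 3 GFP- only peaks, with ranks of 47.4 at 8699, 24.7 at 17840 and 17.3 at 62222, all between 208 and 295 bp long. The largest GFP+ only region of that window, with a rank of 51.7, lay nearer to Fam117b. The Bmpr1a window had 8 regions called higher (32.0%, against 13.8% at protein-coding genes) and 8 lower (32.0%, against 35.2%). Its GFP+ only regions clustered at the neighbouring gene Mmrn2, which encodes an endothelial matrix protein, with ranks of 43.6 and 47.8, next to a shared region that ranked 60.2 in GFP- and 83.5 in GFP+. Inside Bmpr1a, regions at 44279 and 62632 ranked 13.1 and 38.0, and 18.9 and 30.2, in GFP- and GFP+, while the region at 13226 in the first intron ranked 53.0 and 39.5. By area per bp the last of these had a higher rank in GFP+, by 36.1 points. A GFP- only region at 19664 in the first intron ranked 37.8, and the highest GFP- only region of the window, at −37563 towards 9230112D13Rik, ranked 74.3.

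Of the 7 GFP+ only regions at Smad1, 4 lay in its first intron and 3 downstream of the gene, nearer to Mmaa. Those in the intron had ranks of 43.4 at 10339, 10.4 at 15000, 72.1 at 17616 and 13.3 at 23973. The region at 17616 (chr8:79381722-79382253, 532 bp) was the highest ranked GFP+ only region at any of the 10 genes. A further pair of regions was near the bottom of the GFP- list and well up in the GFP+ list. The region at −15678 ranked 0.6 in GFP- and 34.7 in GFP+, and the one at 73884, beyond the 3′ end and nearer to Mmaa, ranked 0.5 and 77.3. The second intron went the other way at 39003, where the rank was 51.2 in GFP- and 12.8 in GFP+, and the third intron held GFP- only peaks at 43476 and 45173 that ranked 19.8 and 13.1. In all, 8 of 19 Smad1 regions were called higher (42.1%, against 13.8% at protein-coding genes) and 5 lower (26.3%, against 35.2%). Smad9 had 7 regions, of which 1 was called higher and 1 lower (14.3% each, against 13.8% and 35.2% at protein-coding genes). The higher one was a GFP+ only peak in its first intron at 669 with a rank of 11.1. The lower one, nearer to Gm21958, had a GFP- rank of 14.7.

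**Figure D4:**
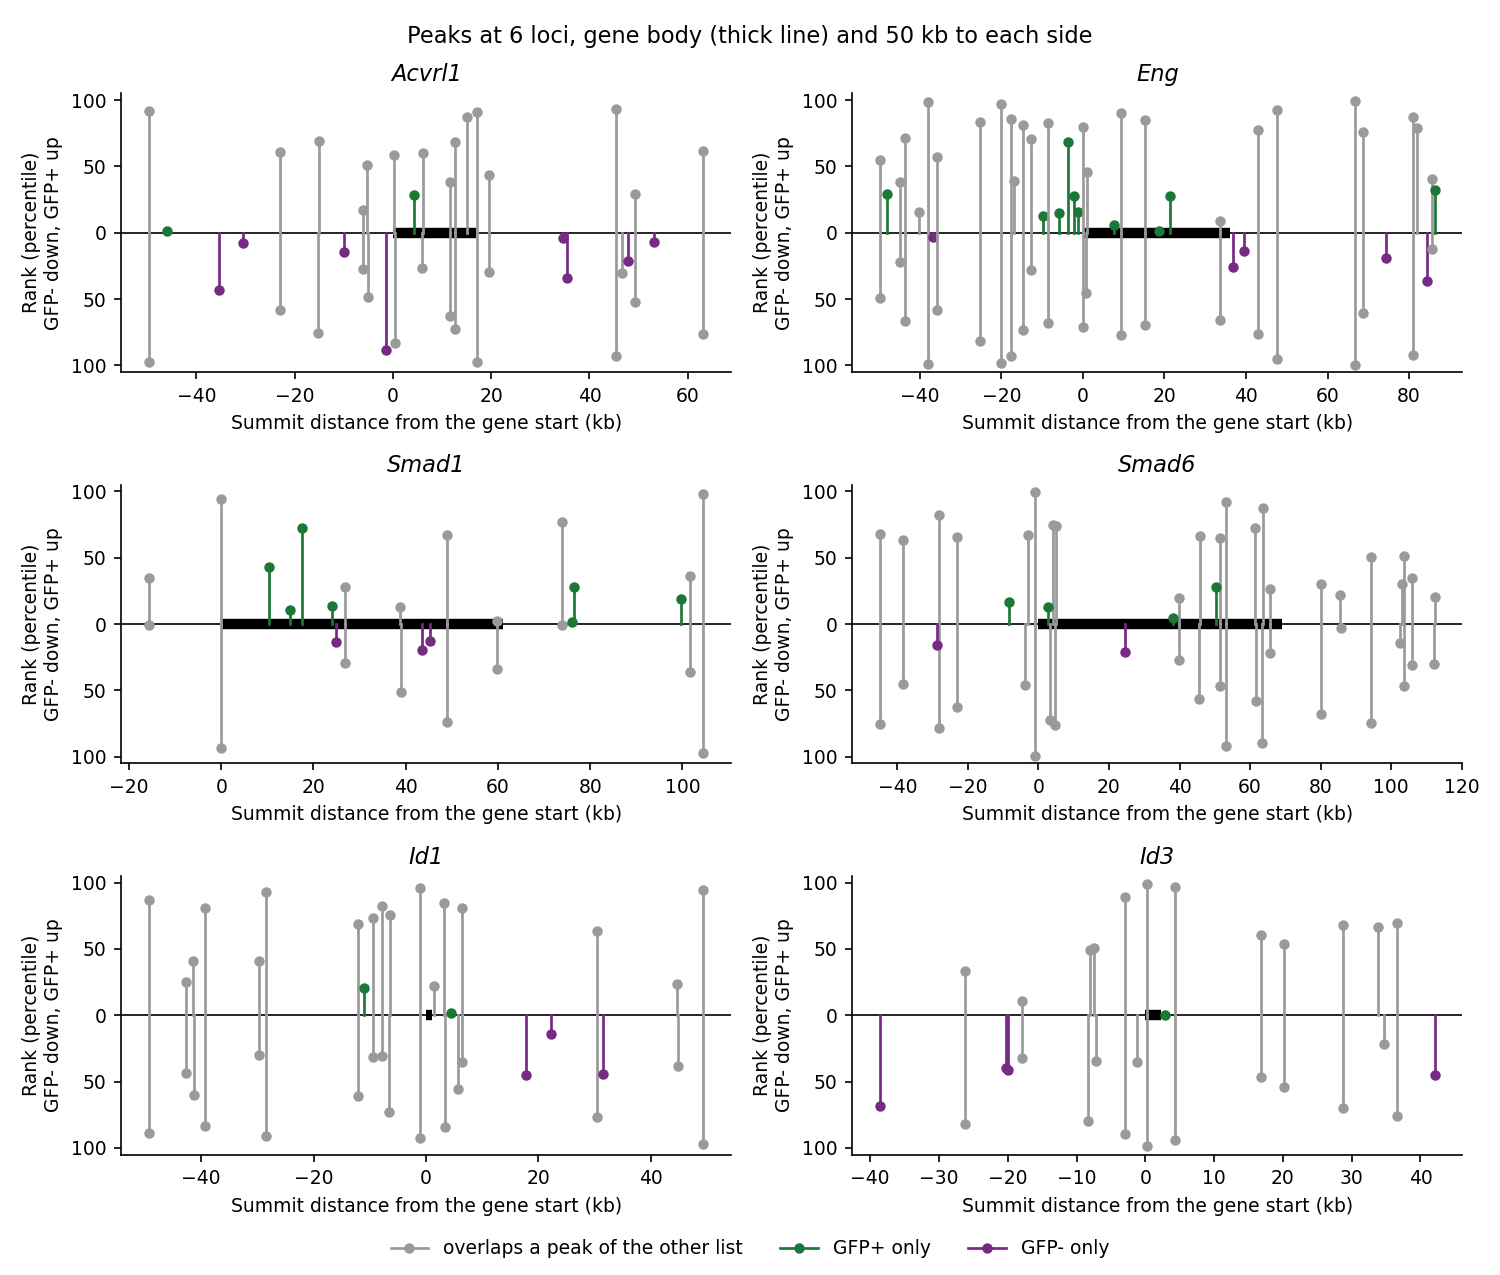
Peaks at 6 of the genes by distance of the summit from the gene start (x axis, kb), drawn upwards for the GFP+ list and downwards for the GFP- list with the percentile rank as height. Grey peaks overlap a peak of the other list, and coloured ones do not. GFP+ only peaks stand upstream of Eng, up to a rank of 68.3, and in the first intron of Smad1, up to 72.1, while a GFP- only peak that ranks 88.3 stands just upstream of Acvrl1.

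Smad6 and Smad7 had no other protein-coding start in their windows. At Smad6, 9 of 27 regions were called higher (33.3%, against 13.8% at protein-coding genes) and 4 lower (14.8%, against 35.2%). The median difference was 3.91 points (−2.63 to 13.2). Shared regions at −3085, at −38333 and, in the third intron, at 51571 ranked 45.8, 45.1 and 46.8 in GFP- and 67.1, 63.1 and 65.1 in GFP+. The 4 GFP+ only regions at Smad6 were small, with ranks up to 28.1, that at 50290. Downstream of the gene the order was reversed at 80109 (67.9 in GFP- and 30.0 in GFP+) and at 94230 (74.3 and 50.9). At Smad7, 5 of 21 regions were called higher (23.8%, against 13.8% at protein-coding genes) and 6 lower (28.6%, against 35.2%). The largest negative difference at a shared region of any of the 10 genes lay upstream of Smad7 at −4142, where the rank was 82.5 in GFP- and 13.7 in GFP+. The third intron of Smad7 held, in order, a GFP+ only region of 1251 bp at 13264 with a rank of 57.0, and a GFP- only region of 763 bp at 18889 with a rank of 63.6. A shared region at 74481, downstream, ranked 14.0 and 73.0.

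The ID genes are short, of 1160 bp (Id1) and 2259 bp (Id3), so nearly all of their regions lay in the flanks. At Id1, 5 of 21 regions were called higher (23.8%, against 13.8% at protein-coding genes) and 7 lower (33.3%, near the 35.2% there). The upstream side of Id1 held a pair of shared regions with higher rank in GFP+, 31.8 and 73.3 at −9372 and 30.5 and 82.1 at −7883. Beside them stood a GFP+ only region at −10983 with a rank of 20.8. Further upstream, nearer to Mcts2, a shared region at −29778 ranked 29.6 in GFP- and 41.1 in GFP+. Shared regions there at −42759 and −41351 were lower in GFP+, with ranks of 43.6 and 25.3, and 60.2 and 40.8. Downstream, the region at 6449 ranked 55.2 in GFP- and 81.2 in GFP+, but by area per bp its difference was −29.3 points, with peaks covering 1637 bp in GFP+ and, as 2 separate peaks, 933 bp in GFP-. The 3 GFP- only regions of the Id1 window lay nearer to Cox4i2. So did shared regions at 30418 (76.3 in GFP- and 63.7 in GFP+) and 44821 (38.0 and 23.7). At Id3, 2 of 16 regions were called higher (12.5%, against 13.8% at protein-coding genes) and 7 lower (43.8%, against 35.2%). Its upstream side held 3 GFP- only regions, with ranks of 68.5 at −38560, 40.0 at −20258 and 41.5 at −19925. Shared regions on the same side ranked 82.3 and 33.5 at −26230, and 79.8 and 50.5 at −8392. The largest positive difference in the Id3 window, 21.9 in GFP- and 66.3 in GFP+ at 33804, was nearer to E2f2. CAGGAAGT lay in the GFP+ summit window there and, as a different site, in the GFP- summit window at 34659.

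The word CAGGAAGT was found in the 200 bp around the summit of 3 of the 34 GFP+ only peaks at the 10 genes, or 8.82% (95% Wilson interval 3.05 to 23.0). Among all 8720 GFP+ only peaks it was in 5.92%, and among the 56240 shared GFP+ peaks in 2.76%. The 3 peaks were those at 23973 of Smad1, −8311 of Smad6 and 77154 of Smad7. The shorter AGGAAG was in 15 of 34 (44.1%), against 42.8% of all GFP+ only and 26.4% of all shared GFP+ peaks. These shares at the 10 genes lay near those of GFP+ only peaks elsewhere. In the 40 GFP- only peaks at these genes CAGGAAGT was in 1 (2.50%, against 3.23% of all GFP- only peaks), in the first intron of Smad1 at 24941, near the GFP+ only peak at 23973. AGGAAG was in 9 of the 40 GFP- only peaks (22.5%), against 28.0% of all GFP- only peaks.

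Words for SMAD proteins were chosen after the peaks had been seen. GGCGCC was in 0 of the 34 GFP+ only peaks, a count that allows a share of up to 8.82% by the limit of 3 counts and 10.2% by the Wilson interval, against 2.90% of all GFP+ only peaks, and in 19 of the 141 shared GFP+ peaks at these genes (13.5%, 8.80 to 20.1), against 7.92% of all shared GFP+ peaks. The shares were not matched for peaks at gene starts. Some of the 19 summits lay near starts of neighbouring genes, such as Fignl2, Acvr1b and Alg5. The arrangement of GGCGCC and GTCT with 5 bases between them was in 2 of the 141, against 0.0445% of all shared GFP+ peaks. It is known from BMP-responsive elements, and the 10 genes include chosen BMP targets, so this comparison was not independent. The 2 peaks were at such targets, Id1 at 3252 and Id3 at −3017, and the same words lay in the GFP- peaks there. Their ranks were alike in the populations, 84.6 in GFP- and 84.3 in GFP+ at Id1 and 89.3 and 89.0 at Id3. The Id1 summit at −1045 and the Smad6 summit at −1055 each held GGCGCC as well, as the printed sequences show. In the RefSeq promoters (250 bases before to 50 after a start), GGCGCC was in 11.9% of 32851 and, of the 10 genes, in Bmpr1a, Bmpr2 and Smad9. The palindrome GTCTAGAC, another SMAD-binding element, was in 0.213% of promoters and, of the 10 genes, in Smad6.

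The rest of the pathway was taken as a list of 40 other ligands, receptors, SMADs, inhibitors, ligand-binding proteins and targets. Start peaks were found for 35 of the 40 in GFP- and 33 in GFP+. Of the 35 with a peak in either list 0 were called higher and 7 lower, where 3.57% and 12.5% of all genes with a start peak were. The 35 had a median GFP- rank of 96.5, and a start within 10 points of the top could not be called higher. Summed over the 40 windows, 29 of 455 regions were GFP+ only (6.37%) and 141 were GFP- only (31.0%). The 10 largest differences at starts were mostly at secreted proteins. The ligands Bmp4 (72.2 in GFP- and 0 in GFP+), Tgfb2 (93.4 and 73.6), Bmp2 (88.6 and 70.9) and Tgfb3 (94.5 and 88.0) ranked lower in GFP+. So did the ligand-binding proteins Fst (66.8 and 21.4), Chrd (84.7 and 55.2), Bmper (88.1 and 70.4) and Nog (83.1 and 79.8), the last of these, like Tgfb3, by less than 10 points. The receptor Bmpr1b ranked 47.0 and 50.9. For Id2, a target and relative of Id1, the start of the gene record ranked 98.6 in GFP- and had no GFP+ peak, but over all its annotated starts the ranks were 98.6 and 89.2, and for Bmp4 they were 93.5 and 74.0. Gdf2 and Bmp10, which encode BMP9 and BMP10, had no start peak in either list. The plot of unshared regions sets the 10 genes beside this list and the endothelial and fibroblast markers. The other markers were not plotted. At cardiomyocyte markers 10.3% of regions were GFP+ only and 16.2% GFP- only, the latter a lower share than at the 10 genes. At pericyte and smooth muscle markers the shares were 5.95% and 44.0%, and at macrophage markers 2.94% and 29.4%.

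**Figure D5:**
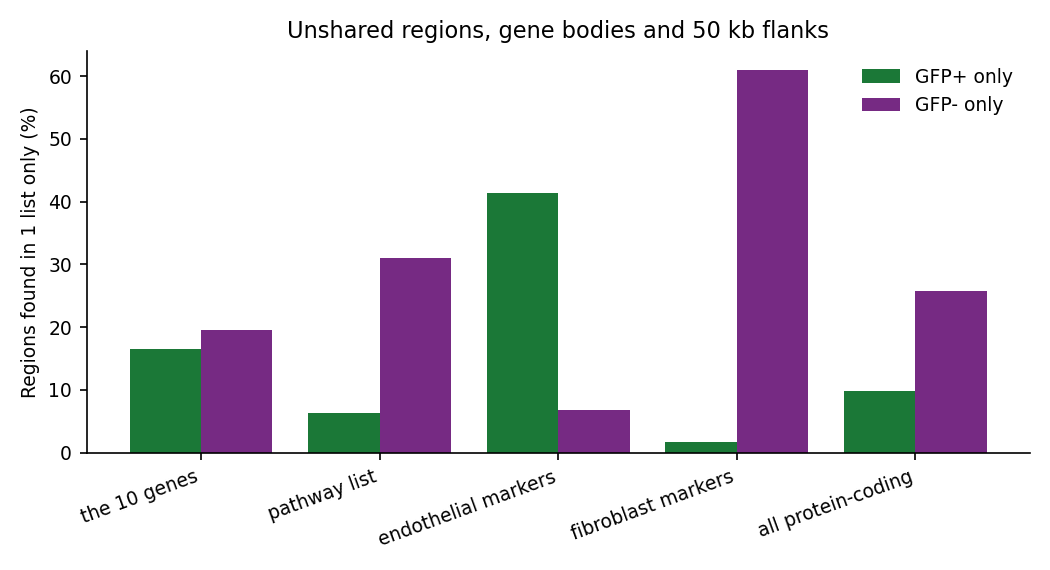
Percentage of regions in the gene bodies and 50 kb flanks that are found in the GFP+ list only (green) or the GFP- list only (purple), 1 list per population, so without error bars. The 10 genes (16.6% and 19.5%) lie between the endothelial markers (41.4% and 6.79%) and the pathway list (6.37% and 31.0%), with fibroblast markers at 1.69% and 61.0% and all protein-coding genes at 9.80% and 25.8%.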

How the data were processed

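ATAC-Seq peak lists of GFP- and GFP+ heart nuclei were used as deposited. The authors trimmed reads with fastp, aligned them to mm10 with Bowtie2, removed duplicates with Picard, downsampled to equal read numbers and called peaks with Genrich from both replicates of a population together, leaving out chrM, chrY and blacklisted regions. For every peak the authors deposited a signal (its area), a −log10 p-value at the summit and a score (1000 times the area per bp, capped at 1000). The lists hold no read counts, so depth rests on this downsampling and no counting error per peak could be given.

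Percentile ranks, merged regions, order-statistic and Wilson intervals (95%) and word counts were computed in Python with pandas 2.3.3 and pysam 0.24.0, with gene records of GENCODE vM21 and the GRCm38.p6 sequence, the same build as mm10. Overlap, merging and rank steps were tested on simulated peaks. Samples were grouped by their labels. No test was run, since each population had 1 list. The genes, the pathway list and the markers were chosen with earlier results of these data known. The naming rule covered the start peaks of every gene and allowed its largest unshared peaks and largest peaks away from starts, of which the last are mostly not described, and of the pathway list the 10 largest start differences. Further regions past 10 points were named after their values were seen. Alternatives changed the windows, flanks, overlap, size measure, area threshold, list length and words.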

Additional observations from a re-analysis of the deposited data

How the results depend on the processing

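Of 34 alternative values for the summary results, 24 stayed close to the value reported (counts within 1.5 times, medians and shares within their interval), the 10 of 10 start peaks among them. Of 170 alternative values for single starts and for shared regions past 10 points, 137 kept their call. The GFP+ only count of 34 became 22 with 10 kb flanks and 61 when sharing required 50% of both peaks. The GFP- only count of 40 became 17 with 10 kb flanks, 63 with 100 kb flanks, 19 with the gene as nearest start, 26 above the 25th percentile of area, 66 with 50% overlap and 22 with lists of equal length. In each of the flank, threshold and equal-length settings the GFP+ only share at the 10 genes stayed above, and the GFP- only share below, that of all protein-coding genes (22.4% against 9.62%, and 17.3% against 24.8%, with 10 kb flanks). Eng and Smad1 were not left out in these settings. The median region difference was 0.991 with nearest starts only. The ETS share was 44.1% with the shorter word. Ranking by area per bp reversed 9 regions, Acvrl1 at −6087 (16.8 points) and 11609 (1.67), Bmpr1a at 13226 (36.1) and −50926 (41.3), and Id1 at 6449 (−29.3), −42759 (19.6), −29778 (−2.66), 30418 (3.37) and 44821 (7.45). Ranking by −log10 p reversed 2 at Acvrl1, at −6087 (2.14) and 49209 (9.41). By area per bp the Acvrl1 start difference was −7.74 points, and 5 other starts passed 10 points. The cause was not tested. No paired analysis was possible because each list pools both replicates, and for the same reason no replicate could be left out.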
